A study of Homo sapiens with 7 samples.

Results

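Small nucleolar RNA (snoRNA) genes and the genes that hold them were described in 6 ChIP-seq peak lists (chromatin immunoprecipitation followed by sequencing). The antibody recognizes pThr4, the phosphate on threonine 4 in the repeated C-terminal domain of RNA polymerase II. The members were all RefSeq genes of biotype snoRNA on chromosomes 1 to 22 and X of GRCh38, 1196 of 59098 genes. The shortest protein-coding gene that held the whole snoRNA gene was taken as its host, otherwise the shortest long noncoding RNA (lncRNA) gene. By this rule 618 snoRNA genes lay in 512 protein-coding hosts, 273 lay in 113 lncRNA hosts and 305 had no host. Of all members, 541 carried a curated RefSeq record (357 box C/D, 182 box H/ACA and 2 others), and 655 were predicted genes known only by a locus number. The split by record was made after the peak lists had been seen. All libraries came from HEK293, an established human embryonic kidney line. Nuclear lysate was divided into matched portions and incubated with the phosphatase SCP1 before precipitation with the pThr4 antibody 6D7. SCP1 is known for removing the phosphate from serine 5 of the same repeat, and the comparison asked where pThr4 is found once that neighboring phosphate is gone. One group received active SCP1 (labeled WT) and the other the catalytically inactive D96A form, with 3 biological replicates each. The portions were treated in vitro, so the phosphorylation state was changed after the cells had been fixed and lysed. An IgG control was not analyzed here.

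On these chromosomes the active lists held 12625, 6680 and 36892 peaks in replicates 1, 2 and 3, against 2466, 1163 and 2699 for the inactive lists. They hold no read counts, so the depth behind each list is unknown, and active replicate 3 stands apart by its number of peaks. A missing peak therefore means only that the authors' caller listed none there.

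snoRNAs guide the chemical modification of ribosomal and spliceosomal RNA in the nucleolus and in Cajal bodies. Box C/D snoRNAs direct methylation of the ribose, and box H/ACA snoRNAs direct the conversion of uridine to pseudouridine. Most human snoRNAs have no promoter of their own: they lie in introns of a host gene, are transcribed with it by RNA polymerase II and are trimmed out of the excised intron. Hosts are often genes of ribosomal proteins, translation factors and nucleolar proteins, or noncoding genes whose spliced RNA is unstable, such as the small nucleolar RNA host gene (SNHG) family. A few snoRNAs, among them U3, U8 and U13, have promoters of their own. pThr4 is known as a mark of polymerase near and beyond the ends of genes.

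The following 6 sequences are shown because a peak covered these snoRNA genes in every active library, so the results on single members turn on them. SNORA17B, SNORA77B, SNORD134, SNORD56 and SNORD57 also had a peak in every active library, but no matching sequence was found for them. They are transcript sequences of GENCODE release 44, found by gene name, and coordinates are those of the RefSeq gene on GRCh38. Capitals mark an exact box C (TGATGA) that begins within the first 20 bases, an exact box D (CTGA) with at most 10 bases after it, and for box H/ACA snoRNAs an ACA with at most 5 bases after it.
SNORD41, chr19:12706449-12706518, minus strand, in TNPO2: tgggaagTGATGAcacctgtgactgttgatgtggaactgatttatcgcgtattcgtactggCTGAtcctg
SNORD17, chr20:17962710-17962946, minus strand, in SNX5: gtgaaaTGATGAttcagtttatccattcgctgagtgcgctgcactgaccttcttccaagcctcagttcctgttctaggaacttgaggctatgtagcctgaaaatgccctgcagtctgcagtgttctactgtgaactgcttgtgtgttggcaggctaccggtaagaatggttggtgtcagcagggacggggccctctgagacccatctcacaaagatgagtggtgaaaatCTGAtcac
SNORD88A, chr19:50799439-50799535, minus strand, in the pseudogene C19orf48P: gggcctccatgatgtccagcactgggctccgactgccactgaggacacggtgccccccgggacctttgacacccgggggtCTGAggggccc
SNORD88B, chr19:50799029-50799125, minus strand, in the pseudogene C19orf48P: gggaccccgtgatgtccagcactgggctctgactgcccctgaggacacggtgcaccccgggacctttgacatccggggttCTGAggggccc
SNORA10, chr16:1962334-1962466, minus strand, in RPS2: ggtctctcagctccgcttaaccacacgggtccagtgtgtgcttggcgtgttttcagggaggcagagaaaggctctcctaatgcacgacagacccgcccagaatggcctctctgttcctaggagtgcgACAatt
SNORA56, chrX:154774998-154775126, plus strand, in DKC1: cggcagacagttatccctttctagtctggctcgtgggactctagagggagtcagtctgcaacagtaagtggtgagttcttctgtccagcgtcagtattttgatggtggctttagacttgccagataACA
The printed SNORD88A and SNORD88B are 91 bases long against 97 for the RefSeq gene. Across the 209 box C/D genes with a sequence, 153 (73.2%) held both exact boxes. Of the 66 box H/ACA genes with a sequence, 61 (92.4%) held the ACA. These letters only describe the members, and no peak was placed by them.

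Few snoRNA genes were overlapped by a peak. A peak touched at least 1 base of 34, 17 and 53 of the 1196 snoRNA genes in the active libraries, which is 2.84, 1.42 and 4.43%. In the inactive libraries it touched 3, 2 and 2, which is 0.251, 0.167 and 0.167%. The groups did not overlap, and every active library held more such genes than any inactive library. The lists separated in the same way over all 19630 protein-coding genes. A peak lay in 30.1, 19.3 and 54.9% of those with active and in 8.16, 3.68 and 8.76% with inactive SCP1. For snoRNA genes the mean was 2.90% ± 1.51 (SD, n = 3) in the active and 0.195% ± 0.0483 (SD, n = 3) in the inactive libraries, 2.70 percentage points apart. In the exact two-sided permutation test over the 20 assignments of the libraries p was 0.1, the smallest value this design allows, so it cannot pass 0.05, and it stayed 0.1 after Benjamini-Hochberg adjustment over the 4 classes tested. The difference in the number of listed peaks moves with this result. When each list was cut to its 1163 strongest peaks, the active libraries held 20, 9 and 22 snoRNA genes with a peak and the inactive libraries 3, 2 and 1, a difference of 1.25 percentage points. With a common cutoff on -log10 p the difference was 1.48 points.

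Counted over all libraries, 65 snoRNA genes (5.43%) had a peak in at least 1 library and 1131 had none. The same count was 27.1% for all RefSeq genes, 10.6% for 1911 microRNA genes, 7.22% for 443 transfer RNA genes and 4.8% for 8321 RefSeq genes shorter than 300 bp. Size differs between these classes, since a longer gene can meet a peak in more places.

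The 3 host classes all had their higher values with active SCP1. In protein-coding hosts, 26, 13 and 42 snoRNA genes had a peak in the active libraries (4.37% ± 2.35, SD, n = 3), against 2, 1 and 2 in the inactive ones (0.270% ± 0.0934). In lncRNA hosts the counts were 3, 2 and 6 (1.34% ± 0.763) against 1, 0 and 0 (0.122% ± 0.211). Without a host they were 5, 2 and 5 (1.31% ± 0.568) against 0, 1 and 0 (0.109% ± 0.189). The host rule left out pseudogenes, and 14 of the 41 curated genes without a host lay inside one. SNORD88A and SNORD88B, under 1 shared peak per active library in the pseudogene C19orf48P, were among the host-free genes in each active library. In active replicate 2 they were the only 2, so this class too rested on few genes. The exact permutation p was 0.1 in each class, again the smallest possible. With equal peak number the difference went from 4.10 to 1.89 percentage points in protein-coding hosts and from 1.20 to 0.765 without a host, and with a common cutoff on -log10 p it was 2.16 in protein-coding hosts. In lncRNA hosts the difference of 1.22 percentage points rested on few genes. It was 0.366 with equal peak number (exact permutation p = 0.3), 0.611 with a common cutoff on -log10 p, 0.733 with a stricter q cutoff and 0.794 without active replicate 3.

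Curated genes held most of the overlapped members. Of the 541 curated genes, 31, 15 and 46 had a peak in the active libraries and 2 in each inactive one. Of the 655 predicted genes, 3, 2 and 7 had one with active SCP1, against 1, 0 and 0 with inactive SCP1. Over all libraries this made 56 curated genes (10.4%) and 9 predicted genes (1.37%). Within protein-coding hosts, box C/D genes (25 of 172 in any library) and box H/ACA genes (21 of 144) had a peak about equally often, 14.5 and 14.6%.

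**Figure D1:**
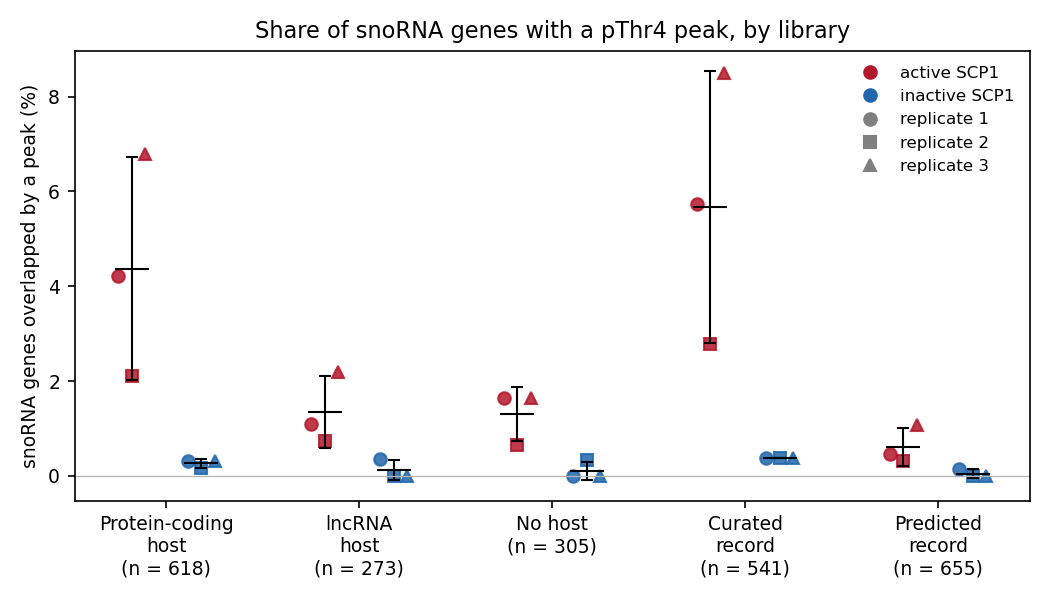
Share of snoRNA genes overlapped by a pThr4 peak (y axis, percent) for each host class and record type (x axis), with 1 point per library, horizontal bars for the mean and vertical bars for the SD of 3 replicates. The active libraries lie above the inactive ones in each class, and active replicate 3, the longest list, is highest or tied for highest.

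No snoRNA gene had a peak in all 6 libraries, against 1.19% of all RefSeq genes, 0.419% of microRNA genes, 0.677% of transfer RNA genes and 0.156% of genes under 300 bp. A peak in every active library and in none of the inactive ones was found for 9 snoRNA genes (0.753%). The same pattern was found for 2.92% of all RefSeq genes, 1.57% of microRNA genes, 0.451% of transfer RNA genes and 0.541% of genes under 300 bp. The share lies below that of all genes and near that of short genes, and is given here as a description of the members. Another 2 snoRNA genes had a peak in all 3 active libraries and in 1 inactive library. Without active replicate 2, the shortest of the active lists, the count of 9 became 19.

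SNORD88A and SNORD88B, neighboring box C/D genes inside the pseudogene C19orf48P, had the strongest of these peaks. Both lay under 1 peak per active library, with a fold enrichment over background of 7.70, 7.72 and 9.11 and a width of 9001, 6841 and 9812 bp. SNORA17B, a box H/ACA gene on chromosome 9, had 5.64, 4.95 and 6.27. Its host by the rule was the predicted protein-coding gene LOC124900276, and it also lies in the lncRNA gene SNHG7. SNORA77B in RANBP1, a regulator of nuclear transport, had 5.34, 4.87 and 6.11, and lay 829 bp from the end of its host.

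SNORD134 in FASN, the fatty acid synthase gene, lay under the widest peaks of the set, 19734, 15943 and 21024 bp, with fold enrichments of 4.49, 4.67 and 4.52. These peaks began past the end of FASN and reached into most of the gene. SNORD41 in TNPO2, a nuclear import receptor, had 3.87, 3.92 and 4.03, and SNORA56 in DKC1 had 4.55, 3.87 and 3.86. DKC1 encodes dyskerin, the pseudouridine synthase that box H/ACA snoRNAs guide. SNORD56 and SNORD57 in NOP56, which encodes a core protein of box C/D particles, shared a peak of 3.59, 4.19 and 3.98. In active replicate 2 this peak began at base 2656689 and met only the edge of SNORD56, which ends at 2656694. SNORD56 counts in that library through the rule of at least 1 base. The peaks over SNORD41 had a -log10 p of 5.92, 5.72 and 6.32 and those over SNORA56 of 7.82, 5.78 and 5.97, above the median of the other peaks of their lists (4.47, 4.78 and 3.83). They were the ones lost among the 1163 strongest peaks: with equal peak number SNORD41 had a peak in 0 libraries and SNORA56 in 1, while the other 7 genes of this set kept all 3.

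SNORA10 in RPS2, a small-subunit ribosomal protein gene, had a peak in all active libraries (6.61, 5.42 and 6.53) and in inactive replicate 1 (7.48). SNORD17 in SNX5, a sorting nexin gene, had 3.37, 3.87 and 4.31 and a peak of 4.26 in inactive replicate 3. SNORA31B in TPT1 was the 1 member listed in more inactive than active libraries, with 4.15 and 3.94 in inactive replicates 1 and 2 and 3.96 in active replicate 3. Fold enrichment is set against the background of each list, so these values describe a peak within its own library and were not tested between groups.

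**Figure D2:**
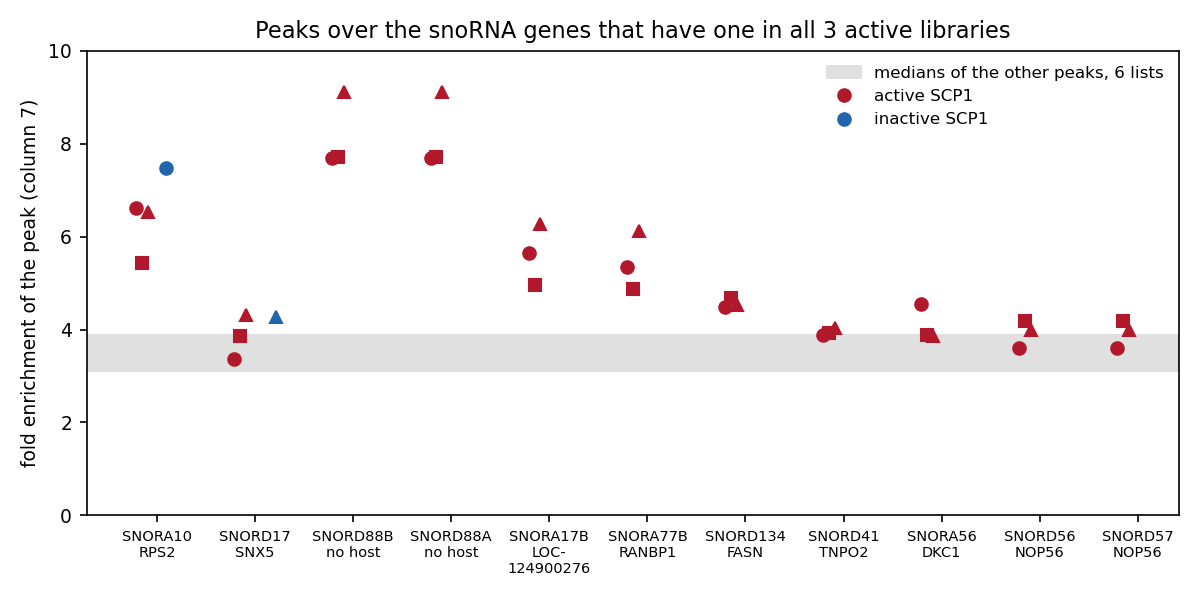
Fold enrichment (y axis, a linear ratio) of the peak over each of the 11 snoRNA genes that had one in all 3 active libraries (x axis, with the host below the name), 1 point per library, with circles for replicate 1, squares for 2 and triangles for 3. The gray band spans the medians of the other peaks of the 6 lists, 3.11 to 3.89. SNORD88A, SNORD88B and SNORA10 stand highest, and the 2 blue points are the inactive peaks over SNORA10 and SNORD17.

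Of the 7 snoRNA genes without a host that had a peak, 3 curated ones lay just past the end of a protein-coding gene. SNORA80C lay 211 bp past the end of ZNF771 and had a peak of 5.05 and 4.72 in active replicates 1 and 3 and of 3.80 in inactive replicate 2. SNORD13H lay 726 bp past NQO1 and SNORA50C 756 bp past TEX2, each with a peak in 1 active library. Only protein-coding genes were searched for these distances. The peak over SNORA50C, 475 bp wide in active replicate 1, was the same one that touched SNORD104 in the lncRNA gene SNHG25. SNORD88A and SNORD88B made up the other curated pair.

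The snoRNA genes with promoters of their own had no peak in any library. These were the U3 genes SNORD3A, SNORD3B-1, SNORD3B-2, SNORD3C and SNORD3D, the U8 gene SNORD118 and the U13 gene SNORD13. The nearest peak to SNORD3D was 46 bp away, in active replicate 3, and the nearest to the other U3 genes was 44200 to 55429 bp away. For SNORD118, which lies 995 bp from the end of TMEM107, the nearest peak was 8476 bp away. SCARNA2 and SCARNA17, Cajal body RNAs of another RefSeq biotype and so no members, had none over them either, with the nearest peak at 3166 and 13899 bp. The U3 copies are nearly identical, and how reads that match several copies were treated is not given in the sources used here.

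Position inside the host was compared with all other positions a window of the same length could take there. For each hosted snoRNA gene, every such position was counted, and the share that touched a peak was averaged over the 891 hosted genes. With active SCP1, snoRNA genes were overlapped in 3.25, 1.68 and 5.39% and the positions in 4.42, 2.94 and 7.06%. With inactive SCP1, the values were 0.337, 0.112 and 0.224% against 1.05, 0.662 and 1.05%. snoRNA genes lay below the positions of their own hosts in 6 of 6 libraries, by a mean of -1.03 percentage points ± 0.414 (SD, n = 6 libraries). Two-sided p was 0.03125 in the exact sign-flip test over 6 libraries, which cannot give less, and 0.0781 after adjustment over the 5 tests of this kind, so this result does not pass 0.05 after adjustment. The test takes the 6 libraries as separate units, although lysate was divided into matched portions.

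The deficit was seen in both record types in protein-coding hosts and in curated genes of lncRNA hosts, but not in predicted genes of lncRNA hosts. In protein-coding hosts, predicted genes lay below their positions, at -0.46 points on average (6 of 6 libraries). Curated genes of protein-coding hosts were overlapped in 7.89, 3.79 and 12% with active SCP1 against 10.2, 6.86 and 13.6% of positions. With inactive SCP1 they were overlapped in 0.631, 0.315 and 0.631% against 2.62, 1.70 and 2.57%. In lncRNA hosts the 183 curated genes lay at -0.874 points (lower in 6 of 6 libraries) and the 90 predicted genes at +0.366 points (lower in 2 of 6). The groups of hosts differed in size and sign. The 59 snoRNA genes in ribosomal protein hosts lay -5.67 points below their positions on average, in 6 of 6 libraries. The 22 in translation factor hosts lay at -4.77 points (lower in 5 of 6), and the 34 in nucleolar and ribosome assembly hosts at +0.849 points (lower in 3 of 6). When only positions at least 1 kb from both host ends were counted, for the 790 genes that lie there too, the mean difference was -0.586 points, lower in 6 of 6 libraries. This narrower comparison was added after the lists had been seen and moved the value by over 1.5 times.

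**Figure D3:**
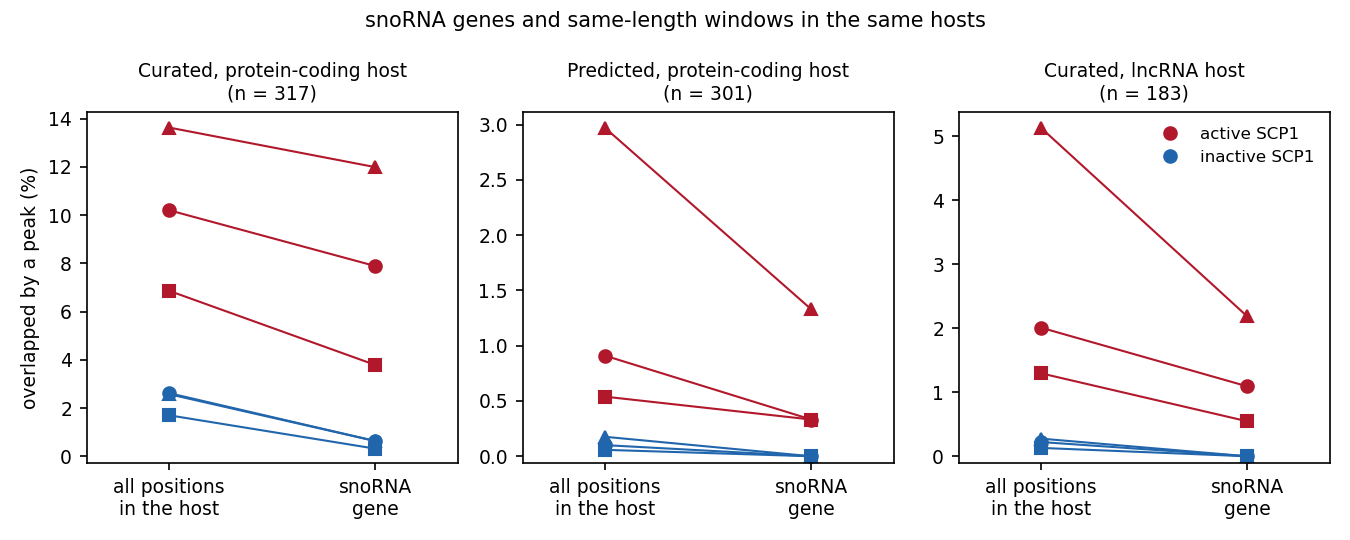
Share overlapped by a peak (y axis, percent, scaled per panel) for all same-length positions in the hosts (left) and for the snoRNA genes themselves (right), with 1 line per library (circles for replicate 1, squares for 2, triangles for 3), in 3 sets of members. All lines fall from left to right, and in curated genes of protein-coding hosts the active line of replicate 1 goes from 10.2 to 7.89%.

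Peaks of the hosts lay mostly downstream of the snoRNA genes. Around the 316 curated snoRNA genes in protein-coding hosts with a known strand, the share with a peak was 8.33% with active SCP1 and 0.422% with inactive SCP1 at 125 bp downstream. It rose downstream to 25.2% at 2625 bp with active and 14.7% at 2875 bp with inactive SCP1. Positions at such distances can lie past the host end, and all 316 genes stayed in the count. In inactive replicate 1, 76 of these genes had a peak elsewhere in the host but not over the snoRNA gene: 72 had one downstream and 7 one upstream. In inactive replicates 2 and 3 the numbers were 57 and 70 downstream against 7 and 9 upstream. In the active libraries 173, 142 and 211 had a peak elsewhere, with 148, 125 and 170 downstream and 68, 36 and 107 upstream, so the contrast was weakest in the longest list. Predicted genes showed a smaller rise, with the mean of the active libraries at most 3.00% within 10 kb and the highest single library, active replicate 3, at 5.00%.

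**Figure D4:**
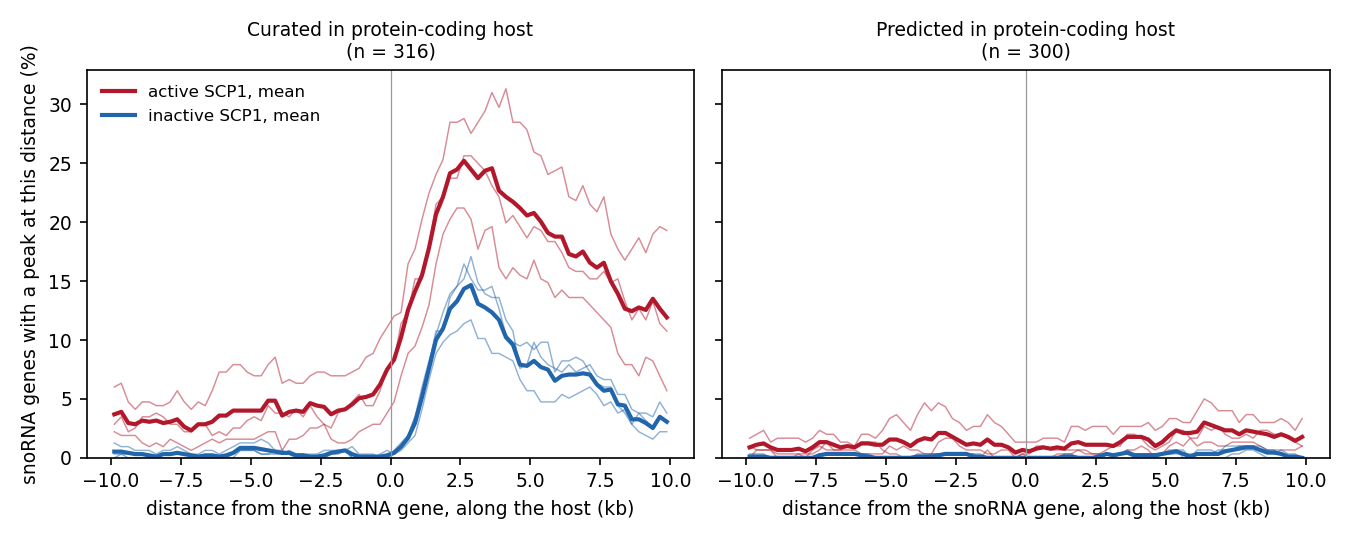
Share of snoRNA genes with a peak (y axis, percent) at each distance from the snoRNA gene (x axis, kb; positive values are downstream in the direction of the host), for curated (left) and predicted (right) genes in protein-coding hosts. Thin lines are the 6 libraries and thick lines the means of 3. The curves of curated genes are low at 0, rise between 1 and 3 kb downstream, and differ by about 10 percentage points between groups at their maxima (25.2 and 14.7%).

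Curated snoRNA genes with a peak lay nearer the end of their host than those without. The median distance to the host end was 2331 bp for the 51 hosted curated genes with a peak in any library and 18886 bp for the 446 without, and to the host start 5598 and 26545 bp. Their hosts were also shorter, with a median length of 10903 against 60848 bp, so distance and host length cannot be told apart here. The share with a peak was 14.3, 4.08 and 14.3% with active SCP1 for the 49 snoRNA genes within 1 kb of the host end, against 2.69, 1.59 and 5.02% for the 817 farther inside. With inactive SCP1 it was 2.04, 0 and 0% against 0.245, 0.122 and 0.245%. The difference was positive in 4 of 6 libraries, with a mean of 4.13 points ± 5.05 (SD, n = 6), and missed the threshold in the exact sign-flip test (p = 0.125, adjusted 0.125). It fell to 2.64 points without active replicate 1. Beyond 20 kb from the host end, 3, 2 and 4 of 482 snoRNA genes had a peak with active SCP1.

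Neighbors in 1 host share its transcription unit and can be compared with each other. Of 68 hosts with at least 2 curated snoRNA genes, 20 had a library in which a peak covered some of them and not others, in 39 combinations of host and library. In 27 of the 39, all overlapped members lay nearer the host end than all the others, in 7 they lay farther, and in 5 the order was mixed. These combinations share hosts and libraries, so no test was made. In NOP56, SNORD57 and SNORD56 lie 1383 and 1699 bp from the end and had a peak in every active library, while SNORD86, SNORA51 and SNORD110, at 2211, 3195 and 4107 bp, had none. In RPL13A, a large-subunit ribosomal protein gene, SNORD35A, SNORD34 and SNORD33, at 1048, 1336 and 1609 bp, lay under 1 peak in active replicate 1, and SNORD32A at 2261 bp did not. In NCL, which encodes nucleolin, SNORA75 had a peak in active replicates 1 and 3 (7.40 and 7.65) and SNORD20 in replicates 2 and 3, while SNORD82, 6837 bp from the end, had none. GAS5 went the other way: of its 11 snoRNA genes, SNORD74 alone had a peak (2.95 in active replicate 3), and it lies 3773 bp from the end, the farthest of all.

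Protein-coding snoRNA hosts had peaks at their ends more often than other protein-coding genes. A window of 1 kb on both sides of the gene end held a peak in 30.2, 26.7 and 39.4% of 510 hosts in the active lists, against 17.1, 13.5 and 16.7% in the inactive lists. In 19120 other protein-coding genes the values were 19.7, 14.2 and 29.6% and 7.40, 3.71 and 7.89%. The hosts were higher in 6 of 6 libraries, by a mean of 10.2 percentage points ± 1.25 (SD, n = 6). By exact sign-flip over the 6 libraries, again taken as separate units, p was 0.03125, the lowest value available, and 0.0781 after adjustment over 5 tests. Gene expression was not analyzed here, so the part of transcription level in this difference was not tested.

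The excess was found in hosts of curated snoRNA genes. In these 225 hosts 49.3, 44 and 58.2% of end windows held a peak in the active lists, against 32.9, 25.3 and 30.7% in the inactive lists, a mean of 26.3 points above other genes (6 of 6 libraries). The 285 hosts of predicted genes only lay at 15.1, 13 and 24.6% and 4.56, 4.21 and 5.61%, a mean of -2.59 points (higher than other genes in 1 of 6). The end windows of 52 curated hosts (23.1%) held a peak in all 6 libraries, against 3.38% of all 19630 protein-coding genes, and those of 15 (6.67%) in every active library alone, against 4.21%. At least 1 library had a peak at 134 of these ends (59.6%), against 32.3% of all protein-coding genes. The share of curated host ends with a peak was 50.5% ± 7.18 with active and 29.6% ± 3.88 with inactive SCP1. With equal peak number these shares drew together, at 28.0, 29.3 and 26.2% with active against 27.6, 25.3 and 24.4% with inactive SCP1, while the excess over other genes was 22.1 points (6 of 6 libraries).

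Among the curated hosts, ribosomal protein, translation factor and nucleolar genes lay above the rest. The end window of the 28 ribosomal protein hosts held a peak in 89.3, 82.1 and 89.3% with active and 78.6, 71.4 and 75% with inactive SCP1. In 57 ribosomal protein genes without a snoRNA gene the values were 68.4, 68.4 and 77.2% and 54.4, 45.6 and 61.4%, a mean of 18.4 points lower (6 of 6 libraries). Translation factor hosts (11) lay at 90.9% in each active library and at 81.8, 63.6 and 72.7% with inactive SCP1. Their symbol list was broad and also held RACK1, TPT1 and AIMP2. Nucleolar and ribosome assembly hosts (9) lay at 88.9, 77.8 and 77.8% and at 77.8, 55.6 and 66.7%. The 177 curated hosts outside these lists lay at 38.4, 33.3 and 50.3% and at 20.3, 14.1 and 19.2%, also above other genes in each library. With equal peak number the active mean no longer lay above the inactive one in ribosomal protein hosts (66.7 against 70.2%), translation factor hosts (60.6 against 66.7%) or nucleolar hosts (55.6 against 63.0%).

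Of the hosts with a peak at the end in all 6 libraries, NCL had the highest value when ranked by the lowest fold enrichment of the 6. Its values were 7.40, 7.72 and 7.65 with active and 7.04, 6.63 and 8.35 with inactive SCP1, so the groups overlapped. PPAN, a ribosome assembly factor, had 7.94, 7.22 and 9.55 and 7.16, 5.74 and 6.90. RPL23A, a ribosomal protein gene with 4 snoRNA genes, had 7.27, 7.66 and 8.32 and 7.47, 5.68 and 7.96. In NCL, whose end was listed in every library, snoRNA genes were listed with active SCP1 only.

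The starts of snoRNA hosts did not share the excess. A window of 1 kb on both sides of the start held a peak in 3.56, 2.67 and 19.1% of the 225 curated hosts in the active lists, against 0.444, 0.444 and 1.78% in the inactive lists. In other protein-coding genes the values were 7.11, 4.51 and 19.3% and 2.33, 0.915 and 2.58%, so hosts lay below in 6 of 6 libraries, by -1.45 points on average, and in 5 of 6 with equal peak number. Active replicate 3 held most of the host starts with a peak, 43 of 225 against 8 and 6 in the other active lists. EIF4A1, a translation initiation factor gene with 3 snoRNA genes, was the 1 curated host with a peak at its start in all 6 libraries (0.444% of 225, against 0.825% of all protein-coding genes). Another (0.444%) had one in every active library alone, against 1.28%, and 45 (20%) had one in at least 1 library, against 20% of all protein-coding genes. SNORD10 and SNORA67 of EIF4A1 also lie in the lncRNA gene SENP3-EIF4A1. Whether the peak in the start window of EIF4A1 belongs to its start or to a gene before it was not tested.

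**Figure D5:**
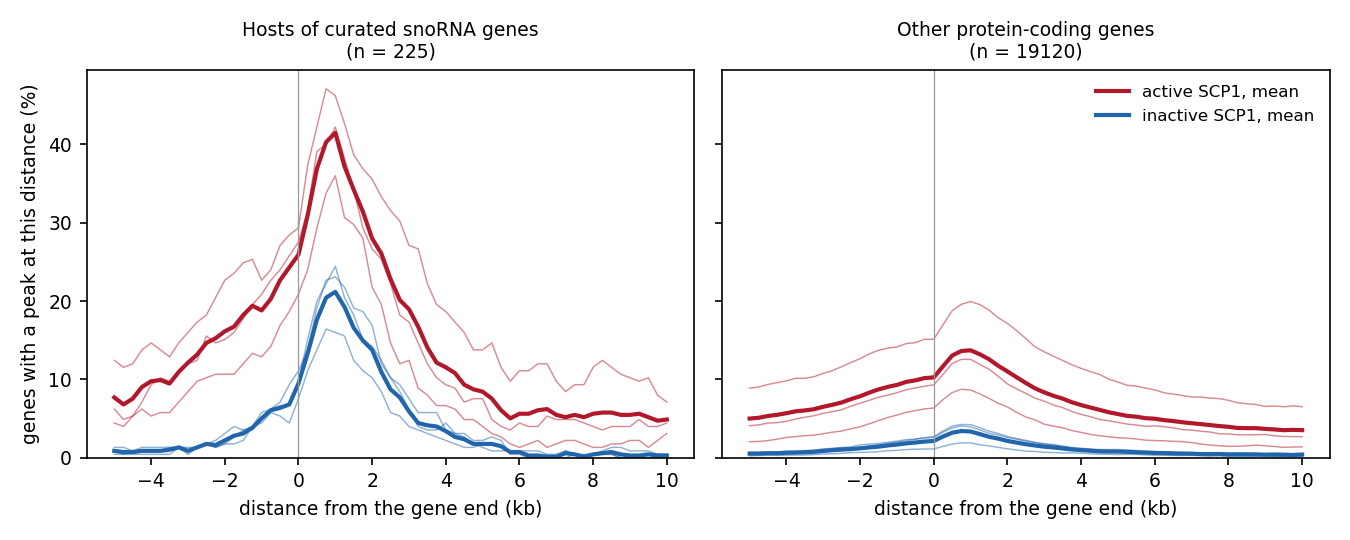
Share of genes with a peak (y axis, percent) at each distance from the annotated gene end (x axis, kb; positive values are past the end), for protein-coding hosts of curated snoRNA genes (left) and other protein-coding genes (right). Thin lines are libraries and thick lines the means of 3. Both sets are highest 750 to 1000 bp past the end, at 41.5% with active and 21.2% with inactive SCP1 in hosts and at 13.7 and 3.42% in other genes.

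Of the 8 hosts with at least 5 snoRNA genes, the 2 largest had none over their snoRNA genes. SNHG14 on chromosome 15 holds 77 snoRNA genes, mostly SNORD115 and SNORD116 copies, and MEG8 on chromosome 14 holds 45, mostly SNORD113 and SNORD114. None of the 118 SNORD113 to SNORD116 genes had a peak in any library. SNHG14 had a peak elsewhere in the gene in each active library, and MEG8 had none in any. Copies within each family are alike, and how reads that match several copies were treated is not given in the sources used here.

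GAS5, a lncRNA gene with 11 box C/D and H/ACA genes, had a peak at its end in 3 active and 2 inactive libraries. SNHG1, with 9 snoRNA genes, had one at its end in all 6 libraries and none inside the gene. TAF1D, with 8, had an end peak in all 6 libraries, and SNORA25 and SNORA40 had a peak in 1 active library each. EIF4A2, with 5, also had an end peak in all 6 and none over a snoRNA gene. GNL3, which encodes nucleostemin, had an end peak in 3 active and 1 inactive libraries and a peak over SNORD69 in active replicate 3. NOP56 is described above with its neighbors.

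lncRNA hosts of curated snoRNA genes had a peak anywhere in the gene in 8, 6 and 13 of 33 with active SCP1 (27.3% ± 10.9, SD, n = 3) and in 3, 1 and 2 with inactive SCP1 (6.06% ± 3.03). Other lncRNA genes lay at 8.67% ± 7.47 and 1.17% ± 0.502. Peaks touched a snoRNA gene in few of these hosts: 2, 1 and 4 with active and 0 with inactive SCP1 in every library. SNHG17, SNHG29, SNHG25, SNHG9 and GAS5 were those hosts. SNORD65 in SNHG29 had 5.32 and 4.98 in active replicates 1 and 3, and SNORA71A in SNHG17 had 3.51 and 2.97 in active replicates 2 and 3.

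The peaks over snoRNA genes were compared with the other peaks of the same list. There were 28, 15 and 44 such peaks with active and 3, 2 and 2 with inactive SCP1. Their median fold enrichment was 3.99, 3.92 and 3.74 with active SCP1 against 3.39, 3.53 and 3.11 for other peaks, and 4.42, 3.87 and 3.90 with inactive SCP1 against 3.85, 3.89 and 3.84. The log2 ratio of the medians was 0.14 ± 0.11 (SD, n = 6 libraries), above 0 in 5 of 6, and did not pass the exact sign-flip test (p = 0.0625, adjusted 0.104). The log2 ratio of the median -log10 p was 0.32 ± 0.30, above 0 in 5 of 6 (exact sign-flip p = 0.09375, adjusted 0.117). In the inactive lists these medians rest on 2 or 3 peaks. Peaks over snoRNA genes were wider than other peaks in 5 of 6 lists, with a median of 3242, 2273 and 2916 bp in the active lists against 798, 832 and 801 bp for other peaks. In the inactive lists the medians were 1854, 1260 and 718 bp against 821, 803 and 785 bp, so in replicate 3 they were narrower. A wide peak meets a small gene more easily, and the part of width in these results was not tested.

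Many snoRNA hosts are known for starts with a terminal oligopyrimidine tract, a C at the first base followed by pyrimidines. In the RefSeq start table (GRCh38.p14), a C followed by at least 4 pyrimidines stood at 13.1% of 267 starts of curated protein-coding hosts, 3.24% of 370 starts of hosts of predicted genes only and 4.55% of 22132 starts of all protein-coding genes. Counted per gene, 35 of 176 curated hosts (19.9%) had such a start at any listed position, against 987 of 15812 protein-coding genes (6.24%). The 18 ribosomal protein hosts held 14 of the 35. The 158 other curated hosts lay lower, at 13.3% of genes and 8.64% of starts. Of the 56 hosts of curated snoRNA genes with an end peak in all 6 libraries, 43 were in the table and 16 had the tract. The following 5 starts, from 10 bases before the first transcribed base onward, show it in capitals. They were picked from those 16 after their values were seen, as examples from the ribosomal protein, translation factor, nucleolar and remaining hosts.
EEF2, chr19:3985444-3985473, minus strand: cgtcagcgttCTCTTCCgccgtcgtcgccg
RACK1, chr5:181243887-181243916, minus strand: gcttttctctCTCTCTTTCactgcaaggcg
SNX5, chr20:17968775-17968804, minus strand: gaaacgcggtCTTTCTCTagacgcgtcttg
RPL13A, chr19:49487598-49487627, plus strand: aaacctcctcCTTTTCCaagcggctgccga
TAF1D, chr11:93741476-93741505, minus strand: aatagccaacCCTTTTCTTCCgcacggttg
The tracts are 7, 9, 8, 7 and 11 bases long. An end peak in every library is what selected the 16 hosts. Of the 16, TOMM20 and HSPD1 had a peak at the start, both in active replicate 3 only. EEF2, the elongation factor gene that holds SNORD37, had end peaks of 6.01, 5.53 and 6.41 with active and 7.11, 6.55 and 6.62 with inactive SCP1, and SNORD37 itself had a peak in active replicate 3 only. The match of letters is a description of the starts and was not related to the peaks by a test.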

How the data were processed

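The 6 libraries were pThr4 ChIP-seq of HEK293 lysate, 3 biological replicates with active and 3 with inactive SCP1. Reads were 150 bp paired-end. The submitters' processing notes name cutadapt 4.6, Bowtie2 2.5.2, FastQC and build hg38. The peak caller's version, its control and its read filters are not given in the sources used here. Each list came from 1 library. The authors deposited for each peak a fold enrichment (a ratio over background, column 7), a -log10 p-value and a -log10 q-value (columns 8 and 9). The deposited score (column 5) is 10 times the -log10 q-value without decimals and was not used. The lowest deposited -log10 q-value was just above 1 in every list, which a q cutoff of 0.1 would leave. The deposited lists hold no counts, so depth is unknown and precision rests on the replicates.

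Members, lists of host genes and comparisons were chosen with earlier results of these data known. Gene positions came from RefSeq (GRCh38.p14). Host strand came from the RefSeq start table for 491 of 600 hosts and by gene name from GENCODE for 109, without its GRCh37 coordinates. Strand was missing for 25 members' hosts, and the table gives no exons. An overlap of 1 bp counted. Positions inside a host were enumerated in full, with nothing drawn at random. Host lists (ribosomal protein, nucleolar and ribosome assembly, translation factor, SNHG and like lncRNA) were matched by symbol. The lists are loose: RACK1, TPT1 and AIMP2 counted as translation factors, and NOP53 stayed outside the lists. Named genes were the snoRNA genes with their own promoters, hosts of snoRNA genes with a peak in every active library and in none of the inactive ones, hosts with at least 5 snoRNA genes and host-free snoRNA genes with a peak in at least 2 libraries. No snoRNA gene met the rule of a peak in all 6 libraries. Other names were chosen after their values were seen. Sequences were found for 277 of 541 curated genes by name, chromosome and a length within 10 bases. Groups were compared by exact permutation over 20 assignments, and paired measures within a library by exact sign-flip over 6 libraries, both two-sided (Python 3.11.15, numpy 2.4.6, pandas 2.3.3). Interval functions were tested on simulated data. Alternatives were other peak cutoffs, overlaps, host rules, member sets and left-out libraries.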

Additional observations from a re-analysis of the deposited data

How the results depend on the processing

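The results were recomputed under each alternative, and 127 values kept their direction and their side of the threshold, or for the count stayed within 1.5 times. None reversed. The 14 values that lost the threshold belong to the deficit of snoRNA genes against positions in their hosts and to the excess of peaks at host ends, and all have fewer libraries, whose smallest possible p is 0.0625 with 5 and 0.125 with 4. Leaving out each library in turn gave -1.13 to -0.901 points for the deficit and 9.71 to 10.4 for the host ends, and with replicates 1 and 2 only, the ones that share a pattern of peak names, they were -0.919 and 10.6. The count of 9 snoRNA genes that had a peak in every active library alone ranged from 9 to 19 when 1 library was left out, with 19 without active replicate 2. It was 7 with equal peak number and with a common -log10 p cutoff of 6, and 10 with replicates 1 and 2 only.

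Restricting to curated genes, an alternative chosen after seeing the data, gave 5.30 points for the group difference and -1.62 for the deficit, and curated hosts gave 26.3 points at the ends, or 20.7 without ribosomal protein genes. Of 33 recounts of the named snoRNA genes under other peak cutoffs, 7 changed the number of libraries with a peak, in SNORD41, SNORD17 and SNORA56.

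Lysate was split into matched portions, and same-numbered libraries of the groups share a tag in their peak names, but the labels do not say that a number marks one lysate. The deviations of same-numbered libraries over 16030 genes correlated at 0.0436, -0.225 and -0.169. With the replicate block the differences between groups were 2.70, 4.10, 1.22 and 1.20 points for all, protein-coding-hosted, lncRNA-hosted and host-free snoRNA genes, with p = 0.25 in each exact sign-flip test, the smallest that 3 pairs allow. The block was not applied to the deficit in the hosts or to the excess at host ends. If the pairs were the units there, an exact sign-flip p could not fall below 0.25 either.

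The limits are these. Lists without counts cannot separate fewer reads from less pThr4. With 3 libraries per group no exact permutation p can pass 0.05. Gene ends are annotated ends and not the ends used in these cells. The same-strand host rule takes a strand by name, which can belong to another copy of the gene.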
